A study of Mus musculus with 8 samples.

Results

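Amino acids cross the plasma membrane through solute carriers, and 10 of their genes were followed here in mouse haematopoietic stem and progenitor cells: Slc7a8, Slc7a5, Slc7a6, Slc7a11, Slc3a2, Slc7a1, Slc1a5, Slc1a4, Slc38a1 and Slc38a2. They were chosen by name, with earlier results of these data known, and each matched 1 of the 54532 genes counted. All 10 passed the filter on low counts that left 15009 genes for testing. In AML1/ETO cells the transcripts of Slc7a8, Slc3a2 and Slc38a2 were higher than in controls, by 29.2-, 2.02- and 2.18-fold. Those of Slc7a1, Slc1a4 and Slc1a5 were lower, Slc7a1 by 5.76-fold and Slc1a5 by 1.47-fold, and Slc1a4 was without a read in all 3 AML1/ETO libraries. Slc7a5, Slc38a1, Slc7a11 and Slc7a6 did not pass the test.

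RNA was sequenced from LSK cells, the lineage-negative, Sca-1 positive and c-Kit positive bone marrow fraction that holds stem cells and early progenitors, of C57BL/6 mice. The 3 AML1/ETO libraries came from mice of genotype Runx1-Runx1t1, which carry the fusion made by the t(8;21) translocation of acute myeloid leukaemia, and the 5 control libraries from WT mice. Both groups had received poly(I:C), a synthetic RNA that triggers an interferon response, in 4 injections of 5 mg/kg, and their cells were sorted 4 weeks later. The sources used here do not give the driver that switches on the fusion, the age of the mice or whether each library is a separate animal. The p-values therefore measure only the spread between libraries, which may be technical.

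Library totals ran from 14693080 to 17527043 reads. Runx1t1, the part of the fusion that control cells hardly express, stood at 53.9 to 123 CPM (read counts scaled to library size) in AML1/ETO libraries and at 1.58 to 7.68 in controls. Sex-linked transcripts split the same way, with 28559 to 33151 reads of Xist against 0 to 111, and 0 reads of Ddx3y against 3688 to 5038, so sex and genotype cannot be told apart. Of the 10 LSK markers, 8 were higher in AML1/ETO cells, beside 11.6% of all 15009 genes tested, and 1 was lower, beside 14.2%. The lower 1 was Mecom, at a mean of 11.4 against 60.7 CPM. Cd34, at 739 against 683 CPM, did not pass the test. Ly6a, which encodes the Sca-1 antigen of the sort, was at 221 to 921 CPM there and only at 8.26 to 23.4 CPM in controls, and Kit at 913 to 1697 against 378 to 469 CPM. Many genes had no read where the rest of their group predicts 20 to 50: this held for 41.4% to 51.1% of such genes in AML1/ETO libraries, for 46.2% in control library 1 and for 10.5% to 27.0% in the other controls. In bulk RNA, fewer cells of a type and less RNA per cell cannot be told apart.

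The Slc7 light chains Slc7a5 (LAT1), Slc7a8 (LAT2), Slc7a6 (y+LAT2) and Slc7a11 (xCT) reach the cell surface as partners of a shared glycoprotein, the CD98 heavy chain encoded by Slc3a2. LAT1 and LAT2 exchange large neutral amino acids such as leucine for glutamine, xCT brings in cystine in exchange for glutamate, and the single-chain carrier CAT1 (Slc7a1) takes up arginine and lysine. ASCT2 (Slc1a5) and ASCT1 (Slc1a4) exchange small neutral amino acids, among them glutamine for the former and serine for both, while SNAT1 (Slc38a1) and SNAT2 (Slc38a2) load cells with glutamine and alanine by coupling to sodium. Their supply is read by mTORC1 at the lysosome and by the kinase GCN2, which raises the transcription factor ATF4 when amino acids run short. ATF4 acts through C/EBP-ATF response elements, and several of these carrier genes are among its known targets.

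Promoter sequences show the regions upstream of 5 of the members. RefSeq promoters, on build GRCm38.p6, were found for 7 of the 10 genes, in 9 windows; no entry was matched for Slc7a5, Slc1a5 and Slc38a1. In the 250 bases before each start, 5 motifs were searched on both strands: the C/EBP-ATF response element TGATGNAA (in 3.45% of 32851 promoters of that length), the E-box CACGTG (6.02%), the AP-1 site TGANTCA (6.75%), the antioxidant response element TGACNNNGC (10.2%) and the RUNX site TGTGGT (14.0%). An AP-1 match can also be part of an antioxidant response element. Capitals mark the matches, each sequence reads 5′ to 3′ along the gene, and bases inside an annotated exon were left out. The sequences are those of the gene with the largest rise, the gene with both C/EBP-ATF elements, and 3 of the called genes.
Slc7a8, chr14:54781947-54782136, minus strand: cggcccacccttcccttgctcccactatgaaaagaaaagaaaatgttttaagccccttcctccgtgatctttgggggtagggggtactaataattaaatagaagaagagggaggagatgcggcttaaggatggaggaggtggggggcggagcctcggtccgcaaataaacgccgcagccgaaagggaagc
Slc7a11, chr3:50443615-50443863, minus strand: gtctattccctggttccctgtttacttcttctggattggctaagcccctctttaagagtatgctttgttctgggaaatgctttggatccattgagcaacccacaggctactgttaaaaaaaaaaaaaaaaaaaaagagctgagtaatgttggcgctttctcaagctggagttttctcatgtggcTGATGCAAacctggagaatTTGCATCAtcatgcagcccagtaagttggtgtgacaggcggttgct
Slc7a1, chr5:148399905-148400154, minus strand: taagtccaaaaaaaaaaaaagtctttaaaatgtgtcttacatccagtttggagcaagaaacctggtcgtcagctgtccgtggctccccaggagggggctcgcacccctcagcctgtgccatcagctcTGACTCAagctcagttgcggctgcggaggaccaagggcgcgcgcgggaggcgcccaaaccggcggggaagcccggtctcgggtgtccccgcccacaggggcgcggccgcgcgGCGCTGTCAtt
Slc38a2, chr15:96699731-96699978, minus strand: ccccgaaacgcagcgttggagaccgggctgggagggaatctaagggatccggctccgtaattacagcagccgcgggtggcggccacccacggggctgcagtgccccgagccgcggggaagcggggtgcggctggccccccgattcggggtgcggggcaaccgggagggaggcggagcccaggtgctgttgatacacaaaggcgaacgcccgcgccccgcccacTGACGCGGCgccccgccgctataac
Slc1a4, chr11:20332714-20332963, minus strand: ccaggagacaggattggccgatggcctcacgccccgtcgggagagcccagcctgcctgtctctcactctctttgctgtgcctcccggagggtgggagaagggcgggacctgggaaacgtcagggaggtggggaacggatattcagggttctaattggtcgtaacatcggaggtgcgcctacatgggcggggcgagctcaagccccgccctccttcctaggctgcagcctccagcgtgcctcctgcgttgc

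The promoter of Slc7a11 held a pair of C/EBP-ATF elements in opposite orientation, 66 and 47 bases before the start, and was the only 1 of the 7 with that motif. That of Slc7a1 held an AP-1 site 123 bases and an antioxidant response element 11 bases before the start. Antioxidant response elements lay 27 bases before the start of Slc38a2 and 68 bases before that of Slc7a6, and a RUNX site 138 bases before that of Slc3a2. The match of Slc3a2 lay inside an annotated exon, and that of Slc7a6 in part, since those starts are not the first that GENCODE annotates. None of the 5 motifs was in the windows of Slc7a8 and Slc1a4, and none of the 7 genes had the E-box. A match is a description of letters and says nothing of binding.

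Slc7a8 had the largest rise. The gene (ENSMUSG00000022180) spans chr14:54722209-54781946 of GRCm38, the assembly that mm10 denotes, and encodes LAT2. Its transcript was at 699, 822 and 1281 CPM in AML1/ETO libraries 1 to 3 and at 40.6, 26.7, 24.4, 33.1 and 35.05 CPM in control libraries 1 to 5. The lowest AML1/ETO library was thus far above the highest control. The means were 934 ± 307 (SD, n = 3) and 32.0 ± 6.54 CPM (SD, n = 5), a log2 fold change of 4.87 with SE 0.24 (edgeR's quasi-likelihood test, Benjamini-Hochberg adjusted p = 1.75e-07 over all genes tested). The call held in all 17 alternative fits, over a log2 range of 4.56 to 5.13.

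Slc3a2 (ENSMUSG00000010095, chr19:8706882-8723369), the heavy chain that all 4 light chains share, was at 669.5, 468 and 759 CPM in AML1/ETO libraries and at 328, 344, 325, 273 and 298 CPM in controls. Again every AML1/ETO library lay above every control. The means were 632 ± 149 (SD, n = 3) and 314 ± 28.0 CPM (SD, n = 5), a log2 fold change of 1.01 (SE 0.17, edgeR adjusted p = 0.000960) that was called in 17 of 17 alternatives.

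LAT1, the better-known partner of CD98 in dividing cells, was not called. Slc7a5 (ENSMUSG00000040010, chr8:121881150-121907694) was at 316, 74.4 and 119 CPM in AML1/ETO libraries and at 291, 270.3, 220.3, 215 and 224 CPM in controls. AML1/ETO library 1 was above all controls while libraries 2 and 3 were below them, so the groups overlap. The log2 fold change was -0.52 (SE 0.37, edgeR adjusted p = 0.338). Without AML1/ETO library 1 it was -1.34 (edgeR adjusted p = 0.000817), and with all libraries kept limma-voom with quality weights gave -1.04 (adjusted p = 0.00955), so the call depends on this library and on the tool.

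Slc7a6 (ENSMUSG00000031904, chr8:106168857-106198706) encodes the light chain y+LAT2, which exchanges cationic for neutral amino acids. It was at 77.7, 61.2 and 77.2 CPM in AML1/ETO libraries and at 82.3, 80.1, 93.5, 79.1 and 96.9 CPM in controls. Its groups did not overlap, yet the log2 fold change of -0.26 (SE 0.17, edgeR adjusted p = 0.295) did not pass, nor did it in any of 17 alternatives.

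Slc7a11 (ENSMUSG00000027737, chr3:49892526-50443614), the cystine carrier whose promoter is shown above, was scarce in both groups. The AML1/ETO libraries held 13, 35 and 36 of its reads and the controls 281, 281, 58, 114 and 65, or 0.984 to 2.35 CPM against 3.19 to 16.5 CPM. All AML1/ETO libraries were below all controls, but controls 1 and 2 stood well above the other 3. The log2 fold change of -2.33 (SE 0.82, edgeR adjusted p = 0.0564) missed the threshold of 0.05. It passed in 3 of 17 alternatives: with library totals alone (adjusted p = 0.0436), with DESeq2 (adjusted p = 0.0131) and, at the threshold, without control library 3 (edgeR adjusted p = 0.050).

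**Figure D1:**
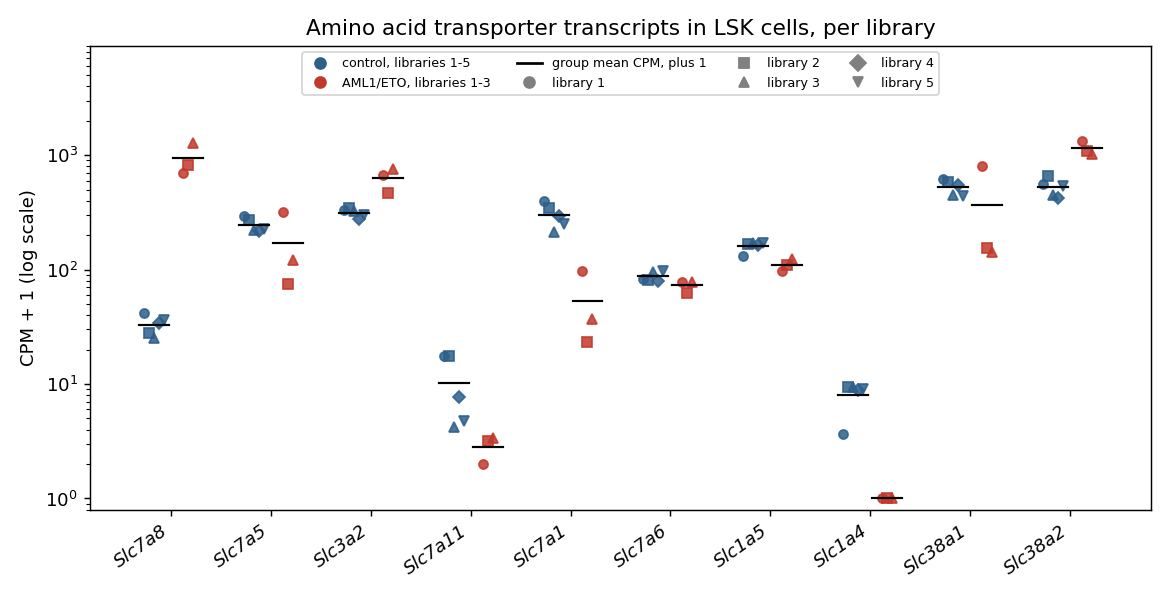
CPM plus 1 of each of the 10 transporters on a log axis, 1 point per library (AML1/ETO libraries 1 to 3 and control libraries 1 to 5, a marker shape per library number), with the group mean CPM plus 1 as a line. Slc7a8 separates the groups most among genes with reads in both, Slc1a4 is at 0 in all AML1/ETO libraries, and AML1/ETO library 1 stands apart for Slc38a1, Slc7a1 and Slc7a5.

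Levels per length set the light chains against each other. Summed over the 4 light chains, CPM per kilobase of exon (CPM/kb) was 248 ± 53.9 (SD, n = 3) in AML1/ETO libraries, from 198 to 305, and 91.8 ± 9.54 (SD, n = 5) in controls, from 82.4 to 106. Of that sum Slc7a8 made up 57.7%, 83.0% and 83.9% in AML1/ETO libraries and 7.68%, 5.50%, 5.74%, 8.02% and 7.87% in controls. Slc7a5 made up 35.3%, 10.1% and 10.5% against 74.2%, 75.2%, 69.9%, 70.4% and 68.0%. The leading light chain transcript was therefore Slc7a5 in each control and Slc7a8 in each AML1/ETO library, with AML1/ETO library 1 nearest to the controls. Slc7a6 made up 6.44% ± 0.797 (SD, n = 3) against 20.8% ± 3.23 (SD, n = 5), although its own level was not called, and Slc7a11 was at most 1.22% in any library.

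**Figure D2:**
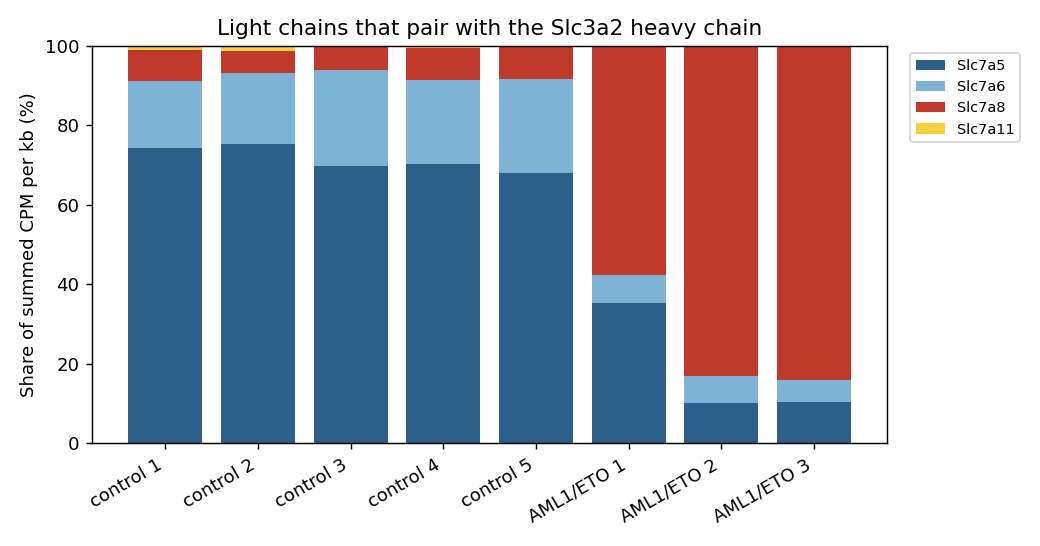
Share of the summed CPM per kilobase of the 4 light chain transcripts taken by each (%), 1 stacked bar per library. Slc7a8 takes 57.7% to 83.9% in AML1/ETO libraries and 5.50% to 8.02% in controls, where Slc7a5 takes 68.0% to 75.2%.

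Ratios within a library need no scaling between libraries, and 6 of them were tested on counts plus 1 per kilobase. Slc7a5 over Slc7a8 was 0.612, 0.122 and 0.126 in AML1/ETO libraries and 8.63 to 13.6 in controls, a difference of -5.62 on the log2 scale. Slc3a2 over the summed light chains was 0.784, 0.670 and 0.705 against 0.880 to 1.08, a difference of -0.43, so the heavy chain rose by less than the sum of its partners. Slc7a11 over the other light chains differed by -3.48, which includes the rise of the divisor through Slc7a8. That ratio is no separate support for a fall of Slc7a11, which was not called. In each ratio the groups did not overlap. The two-sided exact permutation test gave p = 0.0357 (0.0357 adjusted over the 6 ratios), the smallest p that 3 libraries against 5 allow. Of the 6 ratios all reached that p, so the test cannot rank them.

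Slc7a1 (ENSMUSG00000041313, chr5:148327410-148399904), the arginine and lysine carrier CAT1, was at 97.1, 22.2 and 36.2 CPM in AML1/ETO libraries and at 393, 342, 212, 293 and 249 CPM in controls. All AML1/ETO libraries were below all controls, library 1 the least. The means were 51.8 ± 39.9 (SD, n = 3) and 298 ± 72.1 CPM (SD, n = 5), a log2 fold change of -2.52 (SE 0.43, edgeR adjusted p = 0.00122), called in 17 of 17 alternatives. Without AML1/ETO library 1 it was -3.36 (edgeR adjusted p = 1.22e-05). Slc7a1 over Slc7a6, the other member that carries cationic amino acids, was 0.144 to 0.496 in AML1/ETO libraries and 0.897 to 1.89 in controls, a difference of -2.50 on the log2 scale (exact permutation p = 0.0357).

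Slc1a4 (ENSMUSG00000020142, chr11:20302180-20332713), the serine and alanine exchanger ASCT1, was at 0 reads throughout the AML1/ETO libraries and had 46, 144, 154, 135 and 139 reads in controls. Control library 1 had the fewest of its group. In CPM the controls stood at 2.69, 8.45, 8.47, 7.86 and 7.97, a mean of 7.09 ± 2.47 (SD, n = 5), which would give 93.6 to 113 reads in the AML1/ETO libraries. Against a floor of 3 reads per library the level was at least 34.8-fold lower (edgeR adjusted p = 0.000882), and the call held in 17 of 17 alternatives. Among genes for which the other libraries of the group predict 80 to 130 reads, 7.23% to 12.0% had no read in a given AML1/ETO library, 10.5% in control library 1 and 0% to 1.87% in the other controls. The part of such missing genes in the zeros of Slc1a4 was not tested. The floor covers counting error only, since reads of 1 amplified fragment are not independent.

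Slc1a5 (ENSMUSG00000001918, chr7:16781340-16798274), the glutamine exchanger ASCT2, was at 96.1, 108 and 124 CPM in AML1/ETO libraries and at 131, 165, 171, 164 and 169.5 CPM in controls. The groups did not overlap, though control library 1 lay close to AML1/ETO library 3. The means were 109 ± 13.9 (SD, n = 3) and 160.2 ± 16.6 CPM (SD, n = 5), a log2 fold change of -0.55 (SE 0.16, edgeR adjusted p = 0.0253). This call is the weakest of the 6: it held in 9 of 17 alternatives and in 2 of the 8 fits that left out 1 library, where the adjusted p ran from 0.0192 to 0.0757. It was lost without AML1/ETO library 1 (0.0576) or 2 (0.0593) and without control library 2 (0.0757), 3 (0.0721), 4 (0.0699) or 5 (0.0708). Slc1a5 over Slc1a4 was at least 398, 543 and 593 in AML1/ETO libraries and 18.3 to 44.9 in controls. The exact permutation p of 0.0357 was taken on counts plus 1. It follows from the absence of Slc1a4 reads in AML1/ETO libraries and is no separate support.

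The glutamine and alanine carriers Slc38a1 and Slc38a2 lie side by side on the minus strand of chromosome 15 and did not change alike. Slc38a2 (ENSMUSG00000022462, chr15:96687392-96699730), which encodes SNAT2, was at 1331, 1076.5 and 1022 CPM in AML1/ETO libraries and at 561, 653, 446, 422 and 536 CPM in controls. Every AML1/ETO library was above every control. The means were 1143 ± 165 (SD, n = 3) and 523 ± 92.9 CPM (SD, n = 5), a log2 fold change of 1.13 (SE 0.17, edgeR adjusted p = 0.000479), called in 17 of 17 alternatives.

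Slc38a1 (ENSMUSG00000023169, chr15:96571418-96642913), which encodes SNAT1, was at 802, 153 and 142 CPM in AML1/ETO libraries and at 613, 584, 449, 552 and 441 CPM in controls. AML1/ETO library 1 was above all controls and libraries 2 and 3 below them, the same arrangement as for Slc7a5. The log2 fold change was -0.53 (SE 0.47, edgeR adjusted p = 0.475), and -1.84 (edgeR adjusted p = 2.23e-05) without AML1/ETO library 1. With all libraries kept, limma-voom gave -1.42 (adjusted p = 0.00301). Slc38a2 over Slc38a1 was 3.24, 13.7 and 14.0 in AML1/ETO libraries and 1.49 to 2.37 in controls, a difference of 2.15 on the log2 scale (exact permutation p = 0.0357). The ratio of the neighbours separated the groups, although Slc38a1 itself did not. In AML1/ETO library 1, where Slc38a1 was above all controls, the separation comes from the higher Slc38a2 level. The ratio is therefore no separate support beside the call of Slc38a2.

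**Figure D3:**
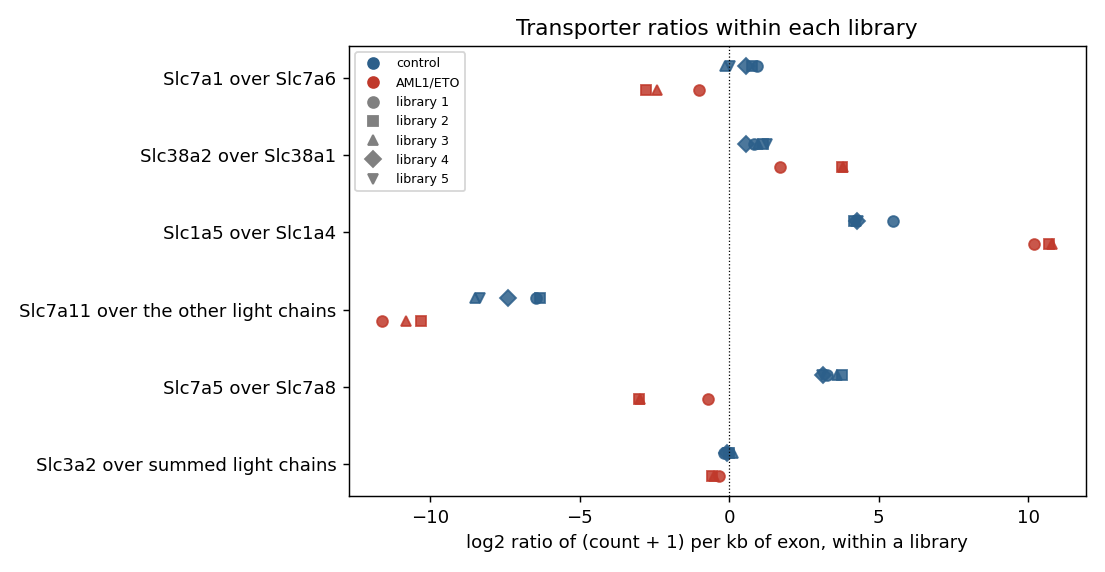
The 6 ratios within each library as log2 of counts plus 1 per kilobase of exon, 1 point per library. The groups do not overlap in any of them. The smallest difference is that of Slc3a2 over the summed light chains (-0.43), and the AML1/ETO values of Slc1a5 over Slc1a4 depend on the added count.

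Together, 3 of the 10 members were called higher, beside 11.6% of all 15009 genes tested, and 3 lower, beside 14.2%; 25.7% of all genes were called in either direction. Of the 10, 3 lay above and 5 below without overlap, beside 14.1% and 17.5% of all genes. Their median log2 fold change was -0.526, also with Slc1a4 at its bound, beside -0.094 for all genes tested. With library totals alone the median of all genes moved to -0.244, and the share of higher among all called genes from 44.9% to 34.2%, while 3 members were higher and 4 lower. No member changed direction in any of the 17 alternatives. Without both first libraries, or with limma-voom, 5 members were lower, as Slc7a5 and Slc38a1 then passed.

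**Figure D4:**
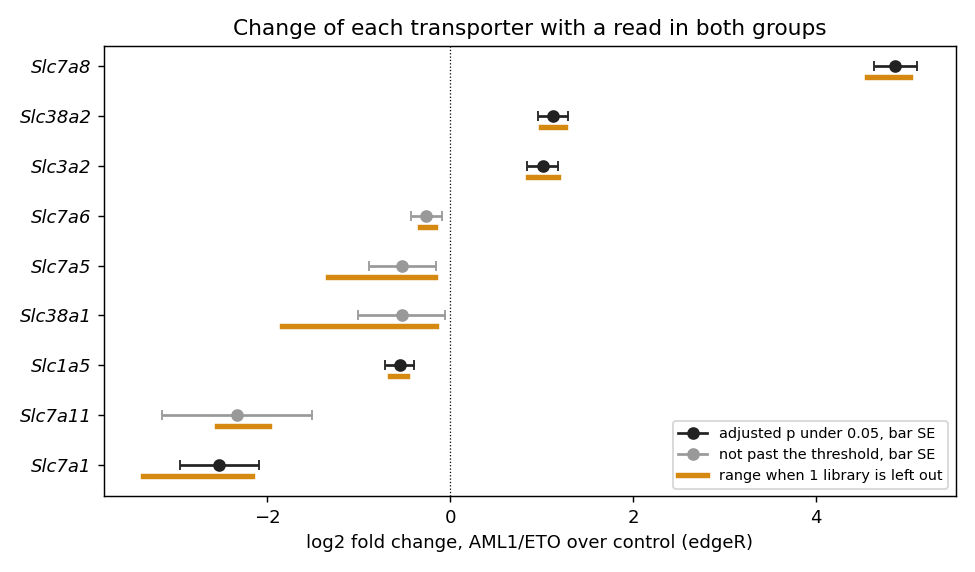
log2 fold change of 9 members with its SE (horizontal bar; black where the edgeR adjusted p is under 0.05, grey otherwise) and the range over fits that left out 1 library each (orange). Slc1a4, with 0 reads in AML1/ETO libraries, is left out; the ranges of Slc7a5 and Slc38a1 are the widest relative to their change, reaching -1.34 and -1.84.

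The order of levels changed as well. Per kilobase of exon, the AML1/ETO libraries had Slc7a8 at 187 ± 61.3, Slc3a2 at 179 ± 42.3 and Slc38a2 at 129 ± 18.7 CPM/kb (SD, n = 3), whose ranges overlapped from each to the next. After a gap came Slc7a5 at 45.9, Slc1a5 at 26.2, Slc38a1 at 21.2 and Slc7a6 at 15.8 CPM/kb, again with overlap between neighbours, and then, each apart from the next, Slc7a1 at 4.50, Slc7a11 at 0.132 and Slc1a4 at 0. In controls Slc3a2 led with 88.9 ± 7.92 CPM/kb (SD, n = 5), overlapping with Slc7a5 at 65.9 ± 9.21, which overlapped with Slc38a2 at 59.2 ± 10.5. Next came Slc1a5 at 38.4, Slc38a1 at 30.6, Slc7a1 at 25.8 and Slc7a6 at 18.9 CPM/kb, overlapping from each to the next, then Slc7a8 alone at 6.39, and Slc1a4 and Slc7a11 at 1.81 and 0.668. Slc7a8 thus stood eighth of 10 in controls and shared the lead in AML1/ETO cells.

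Spread differed between members. In the AML1/ETO libraries the coefficient of variation was 103% for Slc38a1, 76.9% for Slc7a1 and 75.7% for Slc7a5, and 12.7% to 40.6% for the other members with reads. Library 1 exceeded the mean of libraries 2 and 3 by 5.44-, 3.33- and 3.27-fold for these 3 genes. In controls the coefficient of variation was 8.91% to 24.2%, except for Slc1a4 (34.9%) and Slc7a11 (71.8%), the members with the fewest reads.

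The nearest profiles over the 8 libraries were sought by the root mean square distance of log2(CPM + 1) after centring each gene on its mean. Slc7a8 was nearest to P4ha2 and Camk2a (both 0.364), Slc3a2 to Gaa and Coro2a (both 0.127), and Slc38a2 to Arhgap23 (0.153) and Hps1 (0.158). Slc7a1 was nearest to B4galt5 (0.248) and Tmem121b (0.253), Slc1a4 to Net1 (0.231) and Mis12 (0.239), and Slc1a5 to Tmem59 (0.0608) and Npc2 (0.0762). Slc7a5 was nearest to Usp36 (0.202) and Rrp12 (0.205), and Slc38a1 to Tnfrsf12a (0.232) and Map3k2 (0.236). Slc7a11 was nearest to Ubash3b (0.371) and Dst (0.418), and Slc7a6 to Arpc5 (0.0771) and Las1l (0.0874). These distances describe the same 8 libraries, which share the contrast between groups.

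Most other plasma membrane amino acid carriers were not expressed: of 37 listed, 19 had no read in any library and 11 could be tested, of which 2 were higher and 2 lower (median log2 fold change -0.59). The counts of this list and of those below stand beside 11.6% of all 15009 genes called higher and 14.2% called lower. Counts near those shares say nothing particular of a list. Slc6a15, a neutral amino acid carrier better known from brain, had 21 to 165 reads in controls and none in AML1/ETO libraries, at least 30.5-fold lower (edgeR adjusted p = 0.00261). Slc43a2, which encodes LAT4, was lower with a log2 fold change of -0.88 (edgeR adjusted p = 0.0234). Slc38a6 and the aromatic amino acid carrier Slc16a10 were higher by 1.99 and 1.01 on the log2 scale (edgeR adjusted p = 0.0329 and 0.0189). Of these 4, none kept its call in all 17 alternatives: Slc6a15 kept it in 16, Slc16a10 in 15, Slc43a2 in 12 and Slc38a6 in 10.

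In organelles the direction was mixed. Slc38a9, the lysosomal arginine sensor and carrier that signals to mTORC1, was at 167, 62.0 and 94.0 CPM in AML1/ETO libraries and at 24.6 to 34.6 CPM in controls, a log2 fold change of 1.90 (edgeR adjusted p = 0.000462). It was the only 1 of 8 tested lysosomal carriers called higher, and the peptide and histidine carrier Slc15a3 (-3.70, edgeR adjusted p = 0.0152) the only 1 lower. Of 9 mitochondrial carriers tested, the glutamate carrier Slc25a22 (1.39) and the glycine carrier Slc25a38 (0.94) were higher and the aspartate-glutamate carrier Slc25a13 (-1.60) was lower on the log2 scale. Their edgeR adjusted p-values were 0.00229, 0.0275 and 0.00604. Slc38a9 and Slc25a22 kept their calls in all 17 alternatives, while Slc25a38 lost its call in 5, Slc15a3 in 2 and Slc25a13 in 1.

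Among 34 genes of mTORC1 and its amino acid sensing, 10 were higher and 3 lower (median log2 fold change 0.17). Rptor, the subunit that recruits substrates, rose by 1.38 (edgeR adjusted p = 0.000545), Nprl3 of the inhibitory GATOR1 complex by 1.39 (0.00175) and Flcn, which activates RagC and RagD, by 1.25 (0.00381). The inhibitory leucine sensor Sesn2 fell by 2.30 (0.000320) and its relative Sesn3 fell by 2.18 (0.000121), and Rragd, a Rag GTPase, had 67 to 185 reads in controls and none in AML1/ETO libraries, at least 37.8-fold lower (0.000636). The counts moved to 6 higher and 5 lower without AML1/ETO library 1, to 7 and 6 without AML1/ETO library 3, to 5 and 5 without both first libraries, to 7 and 5 with library totals alone, to 9 and 5 with limma-voom and to 3 and 3 with the replicate number as a block. The excess of higher over lower genes was therefore not stable.

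The list of the GCN2-ATF4 response split in direction. Of 17 tested genes 4 were higher and 8 lower, with a median of -0.62, and Atf4 itself was not called (log2 fold change 0.33, edgeR adjusted p = 0.207). Ppp1r15a, which restores translation by bringing a phosphatase to eIF2, was at 1228, 1322 and 1333 CPM against 71.8 to 123 CPM (3.77, edgeR adjusted p = 1.41e-07). Atf3 (2.42), Cebpb (2.37) and Ddit3 (1.26), which encode partner transcription factors, rose too. Among the 8 lower genes, Phgdh, the entry enzyme of serine synthesis, had 34.9 to 75.7 CPM against 272 to 345 (-2.51, edgeR adjusted p = 2.62e-05), and Asns, asparagine synthetase, had 0, 40 and 0 reads against 576 to 1072. The glutathione-degrading enzyme Chac1 had 0 reads against 465 to 858, at least 194-fold lower (edgeR adjusted p = 2.90e-06), and Vldlr and Trib3 had log2 fold changes of -3.25 and -4.37. The list is therefore not described by 1 direction.

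Of 8 tested glutathione and thioredoxin genes 5 were lower (median log2 fold change -0.81), while the cystine carrier Slc7a11 was not called. Txnrd1, the cytosolic thioredoxin reductase, was at 140 to 182 CPM against 349 to 399 (-1.26, edgeR adjusted p = 9.47e-05). Glutathione reductase Gsr (-1.64), the glutamate-cysteine ligase subunits Gclm (-1.16) and Gclc (-0.98), and Nfe2l2 (-0.63), which encodes the antioxidant regulator NRF2, were also lower. Nfe2l2 kept its call in 6 of 17 alternatives.

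Genes that use the imported amino acids moved singly. Of 11 glutamine genes, glutamine synthetase Glul was higher (1.01, edgeR adjusted p = 0.000877) and the mitochondrial enzymes Got2 (-1.17, 0.000782) and Glud1 (-0.43, 0.0396) were lower. Of 7 arginine and polyamine genes tested, Odc1, which starts polyamine synthesis from ornithine, was higher (1.05, edgeR adjusted p = 0.000398), as was Asl (0.93, 0.0474), and Ass1, which with Asl remakes arginine, was lower (-2.90, 0.0425). Of 7 genes of branched-chain amino acid breakdown Dld alone was called (-0.71, edgeR adjusted p = 0.00681), and in 10 of 17 alternatives 1 gene of this list was called higher. Among 4 MYC regulators, Mycn had 151 to 340 reads in controls and none in AML1/ETO libraries, at least 68.8-fold lower (edgeR adjusted p = 7.04e-05), and Myc was not called (0.68, edgeR adjusted p = 0.0978). Without AML1/ETO library 1, without control library 3 or with limma-voom, 1 of the 4 was called higher. Glud1, Asl and Ass1 lost their calls in 14, 8 and 9 of 17 alternatives.

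**Figure D5:**
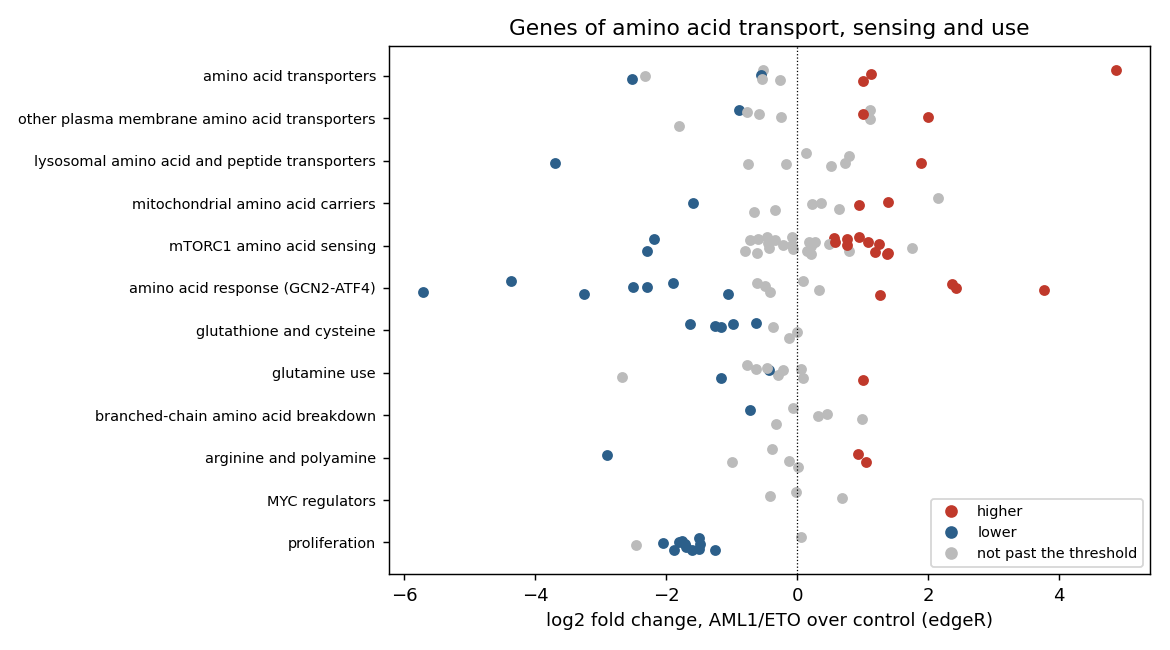
log2 fold change of every tested gene of the members and the 11 pathway lists, 1 point per gene and 1 line per list, coloured by the edgeR call; 7 genes with 0 reads in a whole group are left out. Proliferation genes lie mostly below 0 (median -1.70) and mTORC1 sensing genes around 0 (median 0.17), while the response to amino acid shortage reaches far to both sides.

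Other gene groups moved with the members' contrast. Of 13 proliferation genes 11 were lower in AML1/ETO cells, with summed levels of 1070 to 1870 CPM against 3160 to 3620 CPM. Of 8 mast cell markers 5 could be tested and all 5 were higher. The 8 summed to 2480, 3950 and 6780 CPM in AML1/ETO libraries 1 to 3 against 22.8 to 64.7 CPM in controls. Cma1, Mcpt4, Tpsb2 and Tpsab1 were at 0 in all controls. Cma1 had 1589, 1001 and 4002 reads in AML1/ETO libraries. It passed the filter on low counts through those libraries alone, so it could only come out higher. Mcpt4 had 233, 0 and 0 there, Tpsab1 111, 0 and 0, and Tpsb2 339, 28 and 0, and these 3 were not tested. Cpa3, a mast cell protease, made up most of the AML1/ETO sums with 1771, 3627 and 6135 CPM. Hdc, the histamine-forming enzyme, was at 487, 208 and 250 CPM. Slc7a8 was at 699, 822 and 1281 CPM in the same libraries. It was highest in AML1/ETO library 3, as were Cpa3, Cma1, Fcer1a and Ms4a2. Hdc and the 3 markers not tested were highest in library 1. Neutrophil markers summed to 0.0654 to 62.6 CPM against 119 to 283 CPM, with 3 of 6 lower. Macrophage and monocyte markers summed to 39.5 to 67.2 against 131 to 225 CPM, with 3 of 7 lower, namely Csf1r, Lyz2 and Cx3cr1. Adgre1, C1qa and C1qc lay on the higher side without passing (log2 fold change 0.55, 1.22 and 1.94), and Cd68 on the lower side (-0.47). C1qb, not tested, had reads in AML1/ETO libraries alone. T and NK cell markers summed to 2.27 to 9.31 against 60.9 to 115 CPM, with Cd3e, Cd3d, Cd3g and Gzma at 0 in every library. Nkg7, the only 1 of these 6 markers tested, made up nearly all of the control sum. It was at 2.27 to 7.59 CPM against 60.9 to 114 CPM (log2 fold change -3.90, edgeR adjusted p = 4.46e-05). B cell markers summed to 5.30 to 10.8 against 6.46 to 52.6 CPM, with Ms4a1 at 0 and 3 of 5 tested lower. Erythroid markers summed to 17.9 to 71.1 against 2.98 to 42.4 CPM, with 1 of 6 tested higher. The part of these cell types, and of proliferation, in the transporter levels was not tested.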

How the data were processed

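The deposited values are raw read counts per Ensembl gene, with 1 column per library and no pooling, made by the authors with HISAT2 2.0.5, featureCounts 1.5.0-p3 and build mm10, per the submitters' processing notes. The sources used here do not give the annotation release, the strand setting or how multiply aligned reads were handled. GENCODE M21 gave positions and exon lengths; none of the 10 genes shares exon bases with another gene. Libraries were grouped by title and genotype.

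The test was that of edgeR 4.0.16, run in R 4.3.3 on the counts (filterByExpr, TMM, glmQLFit and glmQLFTest over all 8 libraries, no covariate, two-sided, Benjamini-Hochberg adjustment over 15009 genes, threshold 0.05). CPM uses TMM-scaled library sizes, and SE was derived from the F statistic. The biological coefficient of variation was 72.6%. For a group at 0 reads, folds were bounded with 3 counts per library. Such genes passed the filter through the other group alone, so the direction of their change was fixed in advance. Ratios were compared by an exact permutation test (SciPy 1.17.1) on counts plus 1 per kilobase of merged exon. The procedure was tested on simulated data.

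The members, lists and tests were chosen with earlier results of these data known. All 10 members were named, and the 2 nearest profiles per member among genes of 5 CPM or more on average. Other names were drawn from up to 6 genes per pathway list by smallest p, the ends of its range, and markers at 0 or called. Not every gene under that rule is named, and no proliferation gene is. Asns, Trib3, Ddit3, Atf4, Asl, Ass1, Glud1 and Myc, where outside that rule, were picked once their values had been seen. As alternatives came DESeq2 1.42.0, limma-voom (limma 3.58.1), other scalings and filters, each library left out, both first libraries left out, and the replicate number as a block.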

Additional observations from a re-analysis of the deposited data

Results flagged for a closer look

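In the 5 controls, 3 of 16 quantities checked had a library far from the others, and in each it was control library 1. Slc1a5 was at 131 CPM there against 164 to 171 in the other controls, Slc1a4 at 2.69 CPM against 7.86 to 8.47, and the log2 ratio of Slc1a5 over Slc1a4 at 5.49 against 4.19 to 4.31. The gap to the nearest control, as a share of the group's range, was 0.818, 0.895 and 0.908, above the critical value of 0.71 for 5 samples. Chance flags about 1 in 20 groups, and the ratio is made from both genes, so the flags are not independent. Control library 1 also had no read for 46.2% of genes predicted at 20 to 50 reads, against 10.5% to 27.0% in the other controls. Without it the adjusted p by edgeR was 0.0192 for Slc1a5 and 0.00121 for Slc1a4.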

How the results depend on the processing

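Across 17 alternatives, 3 members were always called higher, and the calls of Slc7a8, Slc3a2, Slc38a2, Slc7a1 and Slc1a4 never lapsed. The number called lower was 3 and rose to 5 with limma-voom and to 5 without both first libraries, where Slc7a5 (-1.04 and -1.27) and Slc38a1 (-1.42 and -1.79) passed. With 1 library left out it was 2 to 4. Slc1a5 lost its call without a low-count filter (adjusted p = 0.0531) and in 6 of the 8 fits that left out a library. Over all genes, 1734 were higher and 2128 lower. With 1 library left out, 1385 to 1752 were higher and 1537 to 2287 lower. Deviations of same-numbered libraries correlated at 0.0709, -0.0472 and 0.0575, within the -0.125 to 0.0802 of libraries with unlike numbers. With only 3 such pairs, these values cannot show whether libraries are paired by replicate number. With that number as a block, 951 genes were higher and 1098 lower, 3 members were higher and 2 lower, and Slc1a5 lost its call (adjusted p = 0.123). The cause of these shifts was not tested. All 6 ratios kept their direction in 11 alternatives each: Slc7a5 over Slc7a8 ranged from -6.41 to -5.23, Slc7a11 over the other light chains from -3.79 to -2.87, Slc7a1 over Slc7a6 from -3.03 to -2.14, Slc3a2 over the light chains from -0.659 to -0.382 and Slc38a2 over Slc38a1 from 1.79 to 2.85. The size of the difference in Slc1a5 over Slc1a4 is set by the added count, so only its direction is given. With a library left out the smallest p these tests allow is 0.0571 or 0.0952, so they cannot reach 0.05. Slc1a4 and Slc7a11 had the fewest reads of the members.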
